A study of Mus musculus with 46 samples.

Results

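The numbered zinc finger protein genes are the mouse genes whose symbol is Zfp followed by 3 or more digits. Members were chosen by resting level: a gene was taken when its mean in the 2 resting Arid1a f/f libraries was 5 TPM or more, where TPM is the authors' transcript abundance per exon length, scaled to the library total. Of 314 such symbols among 25124 listed genes, 122 passed, 192 lay under 5 TPM, and 30 of those were listed at 0 in both libraries. Because those 2 libraries chose the members, comparisons that use them are described here and not tested. Just inside the threshold were Zfp628 (5.03 TPM), Zfp946 (5.05) and Zfp101 (5.12), and just outside it were Zfp764 (4.97), Zfp952 (4.92) and Zfp658 (4.79).

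Messenger RNA was measured in bone marrow-derived macrophages (BMDMs), cells grown from mouse marrow, in 4 experiments that perturbed SWI/SNF, a complex that moves nucleosomes. Experiment 1 covered wild-type cells stimulated by lipid A (0, 1 and 4 hr) and, at the last time, cells given BRM014, BRDK98 or ACBI1. Experiment 2 held Arid1a f/f cells, the floxed control, at 0, 1 and 4 hr of LPS, and Arid1a-/- cells at 1 and 4 hr. Experiment 3 covered Pbrm1 f/f cells before and 4 hr after lipid A, with Pbrm1-/- cells at 4 hr, and experiment 4 covered wild-type cells early after lipid A (0, 20 and 60 min), with each compound at 20 and 60 min. Lipid A is the part of LPS that the receptor TLR4 binds. ACBI1 causes degradation of PBRM1 and of the paired ATPases SMARCA2 and SMARCA4, BRM014 inhibits both ATPases, and for BRDK98 the labels give a code. The labels give no doses, no duration of compound treatment, no Cre driver and no age or sex of the mice. Each group had 2 libraries, except that the 4 hr lipid A control of experiment 1 had 1, because its second column repeats the first. Each perturbed group was analysed here in stimulated cells, so an effect on resting cells and an effect on the response cannot be told apart.

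Most of these genes encode proteins of the C2H2 type, in which a pair of cysteines and a pair of histidines hold a zinc ion, and tandem fingers read a DNA sequence. Many carry a KRAB domain, which recruits TRIM28 and through it SETDB1 and HP1 proteins to methylate histones and silence transposable elements and other targets. Others carry a SCAN domain, which pairs proteins with each other, or act as transcription regulators, RNA-binding proteins or ribosome factors.

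In resting Arid1a f/f cells the members ranged from 5.03 to 118 TPM, with a median of 8.97 TPM and quartiles of 6.38 and 15.0 TPM. They made up 1.41% of the 8667 genes at 5 TPM or more and 0.300% of the listed TPM. The highest was Zfp207 (117 and 119 TPM), which encodes a kinetochore and spliceosome-associated protein. Zfp106, an RNA-binding protein gene, followed with 53.5 and 58.8 TPM, then Zfp710 (48.4 and 45.2), Zfp740 with a mean of 43.2 TPM and Zfp414 with 34.1 TPM. Most members were thus of low to moderate level, and 16 reached 20 TPM.

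The coding sequences of all 122 members, translated from the GENCODE M21 annotation, held a median of 9 C2H2 fingers and at most 30 (Zfp236). A KRAB domain pattern was found in 39 members (32.0%), against 90 of 185 numbered genes under 5 TPM (48.6%). A SCAN pattern was found in 5, of which 2 also had KRAB. These classes rest on a letter pattern for each domain, so a variant domain would be missed and its gene placed in another class. Of the rest, 55 had 5 or more fingers and 25 had 0 to 4. The genes lay on 19 chromosomes, with 27 on chromosome 7 and 15 on chromosome 17, and 51 lay within 100 kb of another numbered gene. Exons of 38 members overlap another annotated gene; reads were counted on both strands, so their values are less certain, and those named here are Zfp106, Zfp143, Zfp236, Zfp319, Zfp346, Zfp367, Zfp384, Zfp414, Zfp513, Zfp553, Zfp653, Zfp703, Zfp704, Zfp710, Zfp740, Zfp777, Zfp800, Zfp866 and Zfp961.

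The 250 bases before the annotated start were available for 104 members (RefSeq, GRCm38.p6) and for 18385 listed genes. Their median GC content was 56.8% against 55.2%, and the ratio of observed to expected CpG was 0.726 against 0.518. The ETS letters CCGGAAG, searched on both strands, were found in 13 member promoters (12.5%) against 9.13% of all. The NRF1 motif was found in 2.88% against 1.05%, the CRE letters TGACGTCA in 3.85% against 1.95%, and the E-box letters CACGTG in 9.62% against 6.65%. The AP-1 letters TGANTCA were in 5.77% against 6.52%, a NF-kB motif in 0.962% against 1.34%, and an SRF motif in 0 against 0.109%. A match describes letters in this window and is no evidence of binding. The promoters of 4 members are printed, 5′ to 3′ on the gene's strand, with the ETS letters in capitals. All 4 hold a match, found in 13 of 104 member promoters. They therefore do not show how common the match is among changed members. Zfp263 is the clearest induced member. Zfp217 was lowered by the stimulus and moved in both directions by perturbations. Zfp120 and Zfp688 are KRAB genes that fell far. Zfp263 is on the plus strand at chr16:3743849-3744098, Zfp217 on the minus strand at chr2:170142676-170142925, Zfp120 on the minus strand at chr2:150136679-150136928 and Zfp688 on the minus strand at chr7:127422035-127422284. The match ends 3 bases before the start in Zfp263, 165 in Zfp217, 7 in Zfp120 (where it lies on the opposite strand) and 15 in Zfp688.
Zfp263: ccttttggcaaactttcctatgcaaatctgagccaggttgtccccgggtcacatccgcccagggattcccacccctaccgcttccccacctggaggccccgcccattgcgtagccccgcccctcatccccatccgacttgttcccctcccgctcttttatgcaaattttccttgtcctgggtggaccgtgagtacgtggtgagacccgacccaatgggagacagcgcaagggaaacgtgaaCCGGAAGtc
Zfp217: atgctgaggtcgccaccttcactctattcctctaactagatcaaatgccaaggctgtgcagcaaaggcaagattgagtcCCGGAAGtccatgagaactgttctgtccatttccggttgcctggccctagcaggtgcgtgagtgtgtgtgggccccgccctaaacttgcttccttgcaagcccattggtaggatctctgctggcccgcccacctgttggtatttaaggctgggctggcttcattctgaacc
Zfp120: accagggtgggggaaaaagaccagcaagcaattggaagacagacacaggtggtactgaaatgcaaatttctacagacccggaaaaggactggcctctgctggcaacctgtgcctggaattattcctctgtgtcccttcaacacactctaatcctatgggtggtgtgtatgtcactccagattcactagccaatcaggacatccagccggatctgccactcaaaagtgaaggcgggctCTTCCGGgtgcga
Zfp688: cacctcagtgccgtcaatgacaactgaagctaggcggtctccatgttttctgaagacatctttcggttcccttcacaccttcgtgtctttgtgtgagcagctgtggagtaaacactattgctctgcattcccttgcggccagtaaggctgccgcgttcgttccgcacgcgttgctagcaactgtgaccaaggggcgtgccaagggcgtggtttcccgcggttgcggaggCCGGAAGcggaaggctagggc

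Exonic reads numbered 7015041 to 27526840 per library, and 3 reads over 2 kb of exons are worth 0.0654 to 0.298 TPM. Macrophage markers summed to at least 12740 TPM in every library. Most of this sum was Lyz2, at 15460 to 40900 TPM in experiment 1 and 9425 to 19020 TPM in experiment 2. No other macrophage marker was over 2208 TPM in experiment 1 or 1910 TPM in experiment 2. In the controls of experiment 1 the macrophage sum was 46560 and 42990 TPM at rest, 38180 and 36640 TPM at 1 hr and 18210 TPM at 4 hr. In experiment 4 it was 33210 and 33040 TPM at rest and 32970 and 32370 TPM at 60 min. Summed lymphocyte markers reached at most 0.287 TPM. The granulocyte marker S100a8 was 79.6 to 167 TPM in experiments 3 and 4 and 2.12 to 24.5 TPM in experiments 1 and 2, while Ly6g was at most 0.339 TPM. In experiment 1, 1 hr control replicate 1 held stromal transcripts (Col1a1 56.2 and Col3a1 36.7 TPM), with a summed stromal level of 142 TPM against at most 4.49 TPM elsewhere. Changes below are log2 differences on log2(TPM + 1), ± standard error, with p adjusted over all tested genes in limma. A member "rose" or "fell" when adjusted p was under 0.05 with the same sign on TPM as deposited and after a median-ratio scaling of each library, called scaled TPM. In bulk RNA, fewer cells of a type and less RNA per cell cannot be told apart, and the p-values measure only the spread between these libraries, which may be technical because the labels do not say that replicates were separate cultures or animals.

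In control cells most members fell within 1 hr of lipid A. In experiment 4, 72 of 121 tested members fell by 60 min and 7 rose, where the same call was made for 17.8% of all tested genes in the lower direction and 7.47% in the higher. In experiment 1, 70 of 121 fell by 1 hr and 8 rose, against 19.3% and 9.9% of all genes. The median member changed by -0.85 in experiment 4 and -0.94 in experiment 1 on TPM, where the median of all genes moved by -0.33 and -0.38. On scaled TPM, with the median of all genes at 0.01 in each, the members' medians were -0.50 and -0.53. These 2 experiments share no library: 62 members fell in both, 88.6% of the members that fell in experiment 1 and 86.1% of those in experiment 4. Without the 1 hr control library that held stromal transcripts, 63 members fell and 7 rose. The authors' deposited table for experiment 1 lists 54 members lower and 9 higher at 1 hr with adjusted p under 0.05, against 7.55% and 10.8% of all genes with a value, and that for experiment 4 lists 68 lower and 10 higher at 60 min, against 9.74% and 10.5%. Of the 83 tested members with no overlapping exon, 54 fell and 4 rose in experiment 4, and 51 fell and 6 rose in experiment 1.

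**Figure D1:**
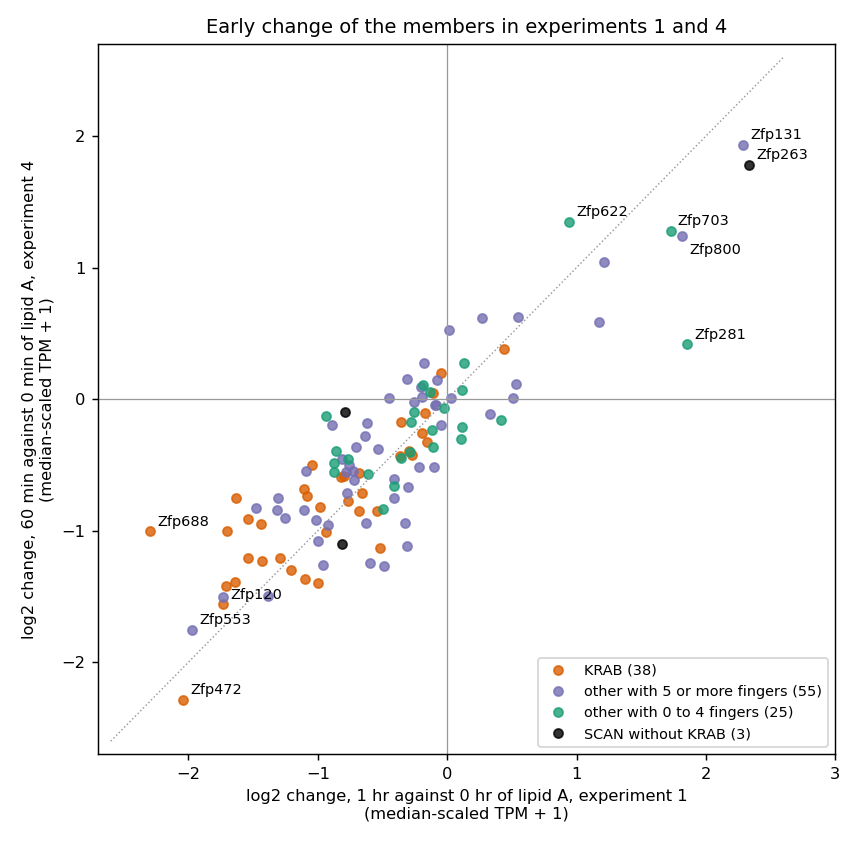
Log2 change on scaled TPM of each member at 60 min in experiment 4 (vertical axis) against 1 hr in experiment 1 (horizontal axis), both with lipid A against unstimulated control cells; each point is 1 member. Most points lie below 0 on both axes, and Zfp263 and Zfp131 lie at the upper right.

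Many numbered genes of low level fell as well. Of 102 tested numbered genes that were under 5 TPM at rest, 83 fell at 60 min (81.4%), and of 103 tested in experiment 1, 77 fell at 1 hr (74.8%). Among other genes under 5 TPM that passed the same filter the share was 16.2% at 60 min and 14.7% at 1 hr, and among other genes at 5 TPM or more it was 17% and 19.4%. The filter can be passed through the resting libraries alone, so these are counts of tested genes and not of all low-level genes, and no test of the difference between the sets was run.

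At 20 min few members had changed. Zfp628 was 5.29 and 5.79 TPM at rest and 8.40 and 8.66 TPM at 20 min, and rose (0.54 ± 0.08, adjusted p = 0.00461). Zfp866, a KRAB gene, was 6.55 and 5.51 against 3.34 and 3.80 TPM and fell (-0.62 ± 0.12, adjusted p = 0.02). These were 1 member higher and 1 lower, against 0.736% and 0.32% of all genes (1.06% in either direction), and the libraries of the 2 times did not overlap in either gene. The count was 10 without 0 min control replicate 2 and 0 without any of the other 3 libraries. Between 20 and 60 min, in a comparison added after the data were seen, 64 members fell and 7 rose, against 15.9% and 7.34% of all genes. The median member level was 7.68 and 7.97 TPM at 20 min and 4.14 and 4.11 TPM at 60 min.

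**Figure D2:**
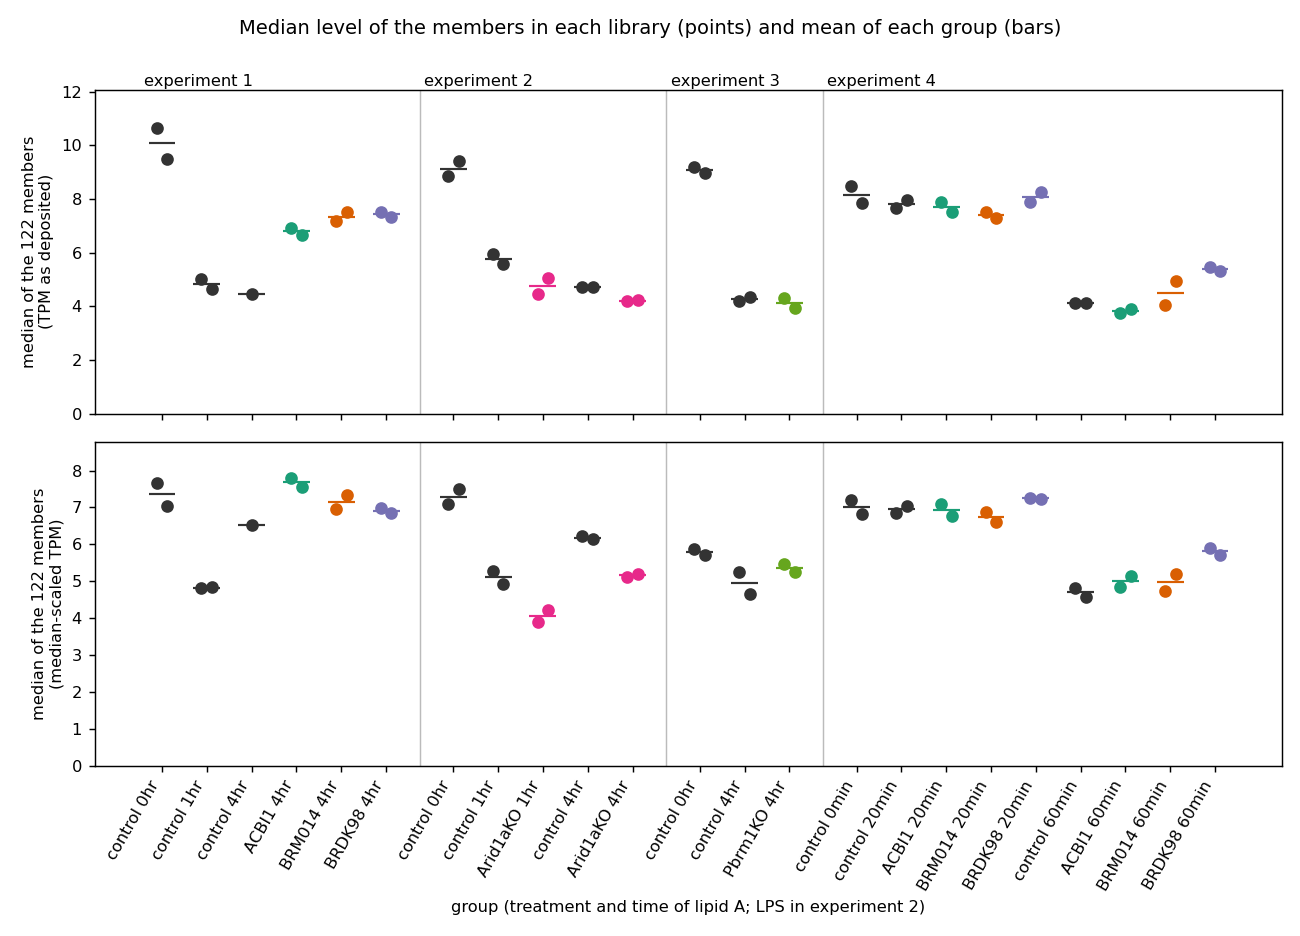
Median of the 122 members' TPM (upper panel) and scaled TPM (lower panel) in each of the 45 libraries, by experiment and group; each point is 1 library and each bar a group mean. In experiment 1 the scaled median goes from 7.68 and 7.03 at rest to 4.81 and 4.84 at 1 hr and 6.52 at 4 hr, and in experiment 4 it stays near rest at 20 min and is 4.81 and 4.58 at 60 min.

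The early decrease was common among KRAB members. Of 38 tested members that matched the KRAB pattern, 30 fell at 60 min and 28 at 1 hr, and 0 rose at either time. Members with a KRAB domain that the pattern missed are not in this class. Zfp263, which rose at both times, did not match the pattern, so the count of 0 holds for matched members only. On scaled TPM the median change of the 38 matched members was -0.80 and -0.96. Of 55 members with 5 or more fingers and neither KRAB nor SCAN, 30 fell and 4 rose at 60 min, and 32 fell and 4 rose at 1 hr, with medians of -0.50 and -0.45. Of 25 with 0 to 4 fingers, 11 fell and 2 rose at 60 min, and 8 fell and 3 rose at 1 hr, with medians of -0.21 and -0.19. The order of these 3 classes was the same in both experiments, without a test between them.

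Zfp472, a KRAB gene with 12 fingers at chr17:32965831-32979211, had the largest decrease at 60 min. Its level was 8.15 and 5.96 TPM at rest, 6.998 and 6.79 TPM at 20 min and 0.434 and 0.334 TPM at 60 min (-2.53 ± 0.12, adjusted p = 1.05e-09). In experiment 1 it was 5.96 and 5.76 TPM at rest and 0.422 and 0.165 TPM at 1 hr (-2.41 ± 0.17, adjusted p = 2.11e-06). The stimulated libraries were far below the resting ones in both experiments. Zfp120 (chr2:150114407-150136678), a KRAB gene whose promoter is printed above, went from 18.2 and 16.3 to 3.91 and 3.76 TPM by 60 min (-1.92 ± 0.10, adjusted p = 5.2e-09). In experiment 1 it went from 15.8 and 15.5 to 3.01 and 2.48 TPM by 1 hr (-2.15 ± 0.14). Resting and stimulated libraries of Zfp120 did not overlap in either experiment. Zfp688 (chr7:127418966-127422034), a KRAB gene with 2 fingers, was 9.65 and 10.6 TPM at rest and 3.69 and 3.08 TPM at 60 min (-1.35 ± 0.11). In experiment 1 it went from 11.8 and 16.4 to 1.43 and 1.14 TPM (-2.71 ± 0.19), the largest decrease of any member at 1 hr. Outside the KRAB class, Zfp553, with 12 fingers, was 5.12 and 4.54 TPM at rest and 0.254 and 0.716 TPM at 60 min (-1.99 ± 0.12).

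The KRAB repressors of known targets fell too. Zfp809, which silences murine leukaemia virus through its primer binding site, was 7.08 and 5.69 TPM at rest and 1.54 and 1.63 TPM at 60 min (-1.51 ± 0.23). Zfp961, whose product acts on another retroviral primer binding site, was 6.91 and 6.41 against 1.89 and 2.25 TPM (-1.32 ± 0.12). Zfp445, which helps to maintain imprints, was 23.6 and 18.1 against 9.61 and 10.5 TPM (-0.97 ± 0.19). In all 3 genes the resting and 60 min libraries were apart. Each also fell at 1 hr in experiment 1, by values of -1.69 ± 0.17, -2.09 ± 0.15 and -1.25 ± 0.13. The silencing partners of KRAB proteins were a list of 25 genes with Trim28, Setdb1, HP1 genes, and histone and DNA methyltransferases. At 60 min 9 of the 24 tested fell and 0 rose, and at 1 hr in experiment 1, 10 of 25 fell and 1 rose. At both times the share that fell was above that of all tested genes and below that of the members, without a test. Trim28 fell at 60 min (-0.60 ± 0.07), and at 1 hr its value was -0.67 ± 0.11 without passing on scaled TPM. Setdb1 fell at 1 hr (-0.77 ± 0.11), and at 60 min its value was -0.64 ± 0.13 without passing on scaled TPM. Chd4, a nucleosome remodeller gene, was the 1 that rose at 1 hr (0.65 ± 0.09).

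Among members that act as transcription regulators, 7 of 14 tested fell at 60 min and 2 rose, and at 1 hr 7 fell and 3 rose. Zfp217 (chr2:170108643-170142675), an oncogene whose product works with corepressor complexes, was 30.1 and 28.4 TPM at rest and 9.89 and 9.53 TPM at 60 min (-1.50 ± 0.13). Zfp143, an activator at many promoters, was 9.94 and 8.07 against 3.56 and 3.77 TPM (-1.09 ± 0.13). Zfp746, which encodes the Parkin substrate PARIS, was 12.2 and 14.0 against 4.73 and 4.66 TPM (-1.31 ± 0.10). Each of these was lower in both 60 min libraries than in both resting libraries, and each also fell at 1 hr in experiment 1 (-0.74, -0.82 and -1.86). Of the 8 tested members with roles in RNA, ribosomes and chromosome segregation, 3 fell at 60 min (Zfp207, Zfp638 and the double-stranded RNA-binding Zfp346) and 1 rose (Zfp622). In the regulators and in these 8 members, the share that fell at 60 min was above that of all tested genes. It was below that of all tested members, without a test. Zfp207 was 57.9 and 50.7 TPM at rest and 34.6 and 31.4 TPM at 60 min (-0.70 ± 0.09), and at 1 hr in experiment 1 it did not pass (-0.34 ± 0.10).

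A small set rose. Zfp131, Zfp263, Zfp275, Zfp622, Zfp703 and Zfp800 rose both at 60 min in experiment 4 and at 1 hr in experiment 1. Zfp653 was the other riser of experiment 4, and Zfp281 and Zfp516 those of experiment 1. Zfp263 (chr16:3744099-3750788), which encodes a SCAN domain protein with 9 fingers, was 64.4 and 58.6 TPM at rest, 56.7 and 52.9 TPM at 20 min and 160.2 and 163 TPM at 60 min (1.38 ± 0.06, adjusted p = 7.25e-10). In experiment 1 it was 56.1 and 48.2 TPM at rest and 205 and 189 TPM at 1 hr (1.90 ± 0.09, adjusted p = 7.72e-08). Zfp131 (chr13:119765186-119790806), a BTB domain transcription factor gene, was 14.1 and 11.7 TPM at rest, 11.4 and 10.7 TPM at 20 min and 39.2 and 39.7 TPM at 60 min (1.55 ± 0.10). Both genes stood well above rest in both 60 min libraries and did not exceed it at 20 min. Zfp622, whose product acts in maturation of the large ribosomal subunit, was 14.9 and 15.3 against 30.03 and 30.8 TPM (0.96 ± 0.08). Zfp703, a corepressor gene, was 19.0 and 25.4 against 40.9 and 42.2 TPM (0.89 ± 0.15), and Zfp800 was 15.8 and 11.7 against 27.6 and 23.4 TPM (0.86 ± 0.22). In each of the 3 genes the groups did not overlap. Zfp281 (chr1:136624901-136630391), a regulator of stem cell genes, was 11.9 and 10.4 TPM at rest and 11.4 and 11.6 TPM at 60 min (0.04 ± 0.14, adjusted p = 0.803). In experiment 1 it was 10.9 and 8.73 against 29.7 and 27.3 TPM (1.46 ± 0.12, adjusted p = 4.95e-06), and the difference between the experiments was not tested.

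**Figure D3:**
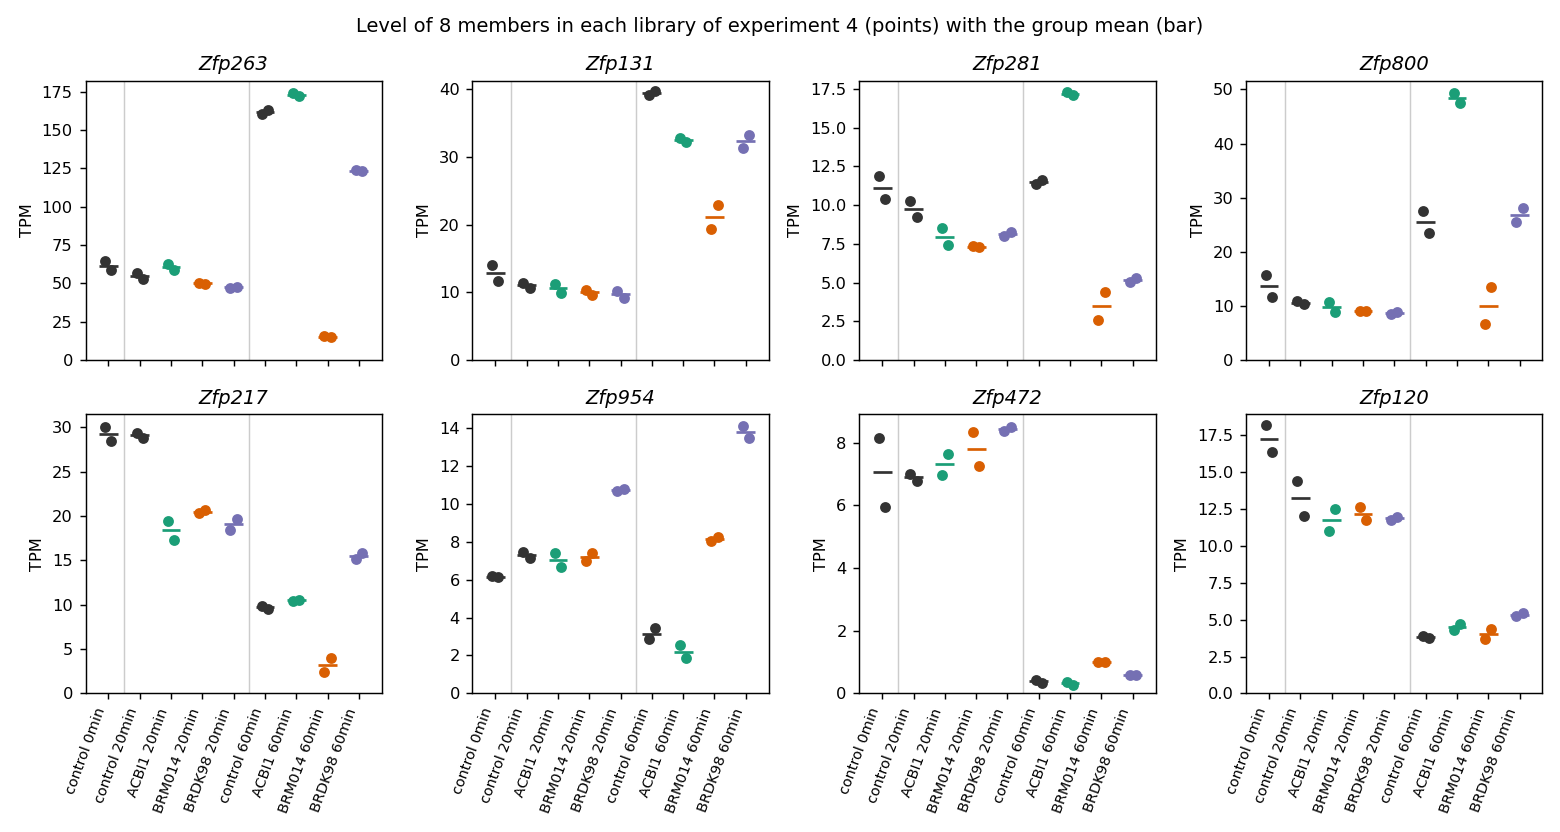
TPM of 8 members in each library of experiment 4 (0, 20 and 60 min of lipid A, control and the 3 compounds); each point is 1 library and each bar a group mean. Zfp263 goes from 64.4 and 58.6 TPM at rest to 160.2 and 163 TPM in 60 min controls and is 15.5 and 15.1 TPM with BRM014.

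In Arid1a f/f cells, whose resting libraries chose the members, the LPS values are a description. By 1 hr, 104 of 122 members were lower in both libraries than in both resting libraries and 13 were higher, where 53.2% and 26.9% of all genes were so. On scaled TPM the numbers were 95 lower and 15 higher, against 41% and 37.7%. The members' median difference from rest was -0.73 at 1 hr and -0.99 at 4 hr on TPM, and -0.58 and -0.38 on scaled TPM. The medians of all genes were -0.15 and -0.63 on TPM and -0.01 and -0.03 on scaled TPM, so much of the 4 hr value on TPM was shared by all genes. By 4 hr, 103 members were lower without overlap and 11 higher, against 69.9% and 21.4% of all genes, and on scaled TPM 78 and 24, against 44% and 41.7%. Zfp263 went from 31.1 and 31.8 TPM at rest to 98.3 and 94.4 TPM at 1 hr and 108 and 97.3 TPM at 4 hr.

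At 4 hr more of all genes were called than at 1 hr, and the share of members called lower was nearer to theirs. In experiment 1, 46 of 121 members were lower at 4 hr than at rest and 13 higher, against 37.2% and 20.1% of all genes (57.3% in either direction), with 1 control library at 4 hr. In Pbrm1 f/f cells 44 were lower and 10 higher, against 30.3% and 16%. On scaled TPM the members' median was -0.19 in experiment 1 and -0.24 in Pbrm1 f/f cells, against -0.05 and -0.02 for all genes. In these experiments, which share no library, 39 members fell in both, 84.8% of those in experiment 1 and 88.6% of those in Pbrm1 f/f cells. Of 38 KRAB members 14 fell in experiment 1 and 13 in Pbrm1 f/f cells.

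Late changes were large in a few members. Zfp395, a DNA-binding factor gene, was 18.9 and 20.55 TPM at rest in Pbrm1 f/f cells and 0.331 and 0.308 TPM at 4 hr (-3.97 ± 0.17, adjusted p = 5.13e-07), and it was listed at 0 in the 4 hr control of experiment 1. Its relative Zfp704 was 11.3 and 11.6 against 0.213 and 0.399 TPM (-3.26 ± 0.17). The 4 hr libraries held 18 and 16 reads of Zfp395 and 38 and 68 reads of Zfp704, against at least 1218 and 2337 at rest. Zfp800 rose from 11.9 and 9.13 to 152 and 124 TPM (3.60 ± 0.18) and stood at 162 TPM in the 4 hr control of experiment 1 (3.80 ± 0.21). Zfp281 rose from 13.7 and 9.82 to 49.0 and 43.0 TPM (1.90 ± 0.19), and Zfp263 from 49.1 and 44.9 to 139 and 189 TPM (1.76 ± 0.18). Zfp800 had the highest change of any member in both experiments, and the 4 hr libraries of these 3 genes lay above every resting library. Zfp207 rose as well, from 87.6 and 78.3 to 186 and 133 TPM (0.92 ± 0.18).

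The later part of the response was tested in Arid1a f/f cells without the resting libraries, in a comparison added after the data were seen. From 1 to 4 hr, 21 members rose and 25 fell, against 17.7% and 32.2% of all genes, and on scaled TPM the members' median was 0.21 against 0.00 for all genes. Of the 21 that rose, 15 had fallen at 1 hr in experiment 1 (71.4%, and 21.4% of the 70 that fell there), and of the 25 that fell, 11 had (44%, and 15.7%), where 57.9% of all tested members fell at 1 hr. Zfp710 was 48.4 and 45.2 TPM at rest, 13.1 and 13.0 TPM at 1 hr and 41.4 and 52.4 TPM at 4 hr (4 against 1 hr 1.76 ± 0.13, adjusted p = 6.67e-07). Zfp143 was 4.67 and 4.60 TPM at 1 hr and 9.86 and 8.88 TPM at 4 hr (0.88 ± 0.14), after 7.97 and 7.37 TPM at rest. On TPM, Zfp710 at 4 hr spanned its resting values. On scaled TPM it was 54.5 and 68.4 at 4 hr against 38.8 and 36.0 at rest. Zfp622 fell from 42.7 and 43.3 TPM at 1 hr to 8.73 and 9.82 TPM at 4 hr (-2.10 ± 0.11), and Zfp703 from 29.99 and 30.9 to 2.83 and 3.82 TPM (-2.87 ± 0.14). At rest they were 19.5 and 18.3 and 20.2 and 18.7 TPM, respectively.

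**Figure D4:**
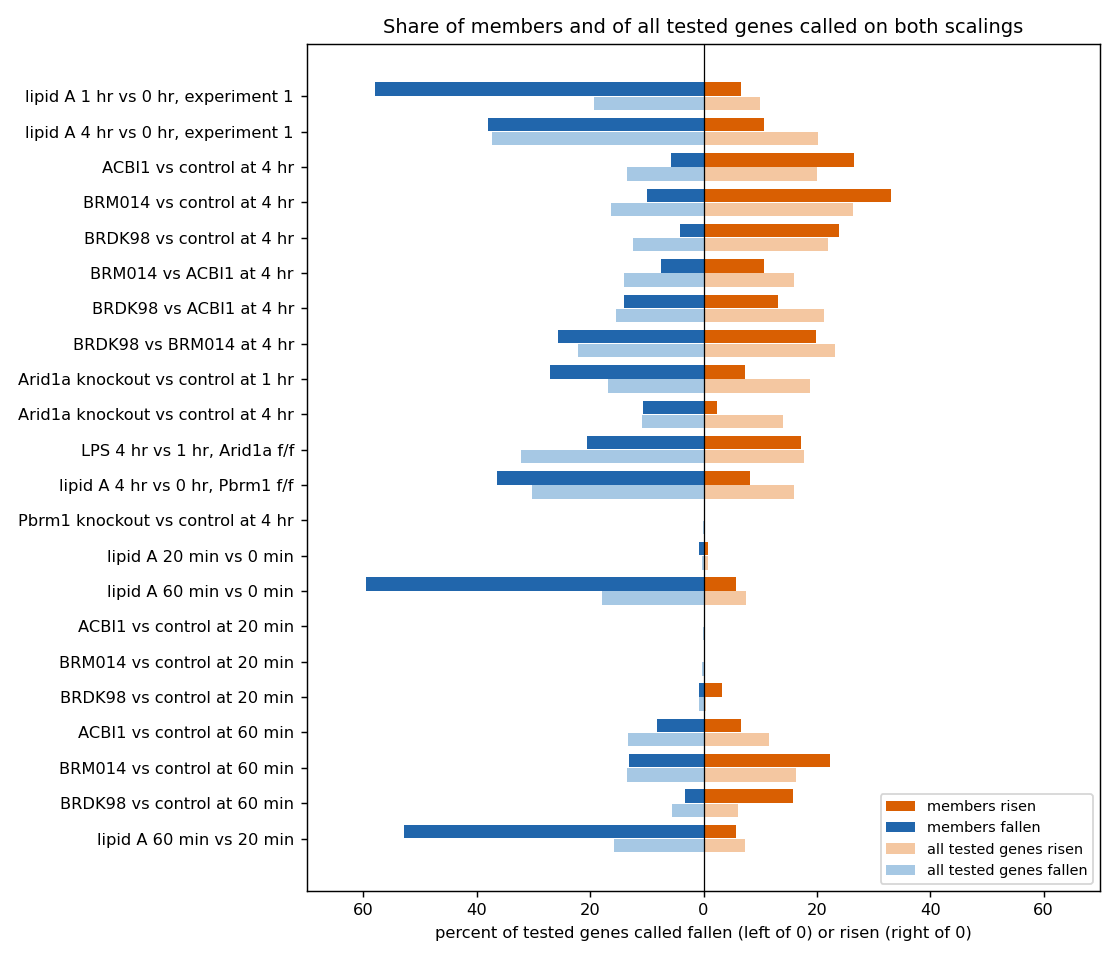
Percentage of tested members and of all tested genes that rose or fell on both scalings, by comparison. The bars for members that fell exceed those for all genes at 60 min and 1 hr of lipid A (59.5% and 57.9% of members). At 4 hr the bars for members that rose exceed those for all genes with ACBI1 and BRM014. With BRDK98 at 4 hr the share of members that rose is near that of all genes. The compound comparisons with control at 4 hr share a single control library, so they are not independent.

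At 20 min of lipid A, few members differed between cells with a compound and controls. With ACBI1 no member passed in limma, against 0.0779% of all genes higher and 0.0606% lower; 6 members had an unadjusted p under 0.05, and limma voom on recovered reads called 1. With BRM014 no member passed, against 0.0606% higher and 0.329% lower; 4 members had an unadjusted p under 0.05, and voom called 0. With BRDK98, 4 rose and 1 fell, against 0.485% and 0.84%, and the total was 0 or 1 with any library left out. Zfp217 was the member that fell: it was 29.4 and 28.8 TPM in control cells and 18.4 and 19.6 TPM with BRDK98 (-0.59 ± 0.13, adjusted p = 0.0406). It was 19.4 and 17.3 TPM with ACBI1 (-0.64 ± 0.13, adjusted p = 0.124) and 20.3 and 20.7 TPM with BRM014 (-0.49 ± 0.13, adjusted p = 0.199). All 6 compound libraries lay below both control libraries, and the 3 comparisons share those controls. Zfp574 was 7.82 and 7.16 TPM with BRDK98 against 4.61 and 5.01 TPM (0.55 ± 0.10), and Zfp954 was 10.7 and 10.8 against 7.48 and 7.13 TPM (0.50 ± 0.10).

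At 60 min each compound moved some members. With BRM014, 27 rose and 16 fell, against 16.4% and 13.4% of all genes. With BRDK98, 19 rose and 4 fell, against 6.04% and 5.52%. With ACBI1, 8 rose and 10 fell, against 11.6% and 13.4%, shares near or below the background. In either direction the background was 29.8%, 11.6% and 24.9%, respectively. The authors' deposited table lists fewer with BRM014, 8 members higher and 8 lower (2.68% and 4.54% of all genes). It lists 16 higher and 6 lower with BRDK98 (3.73% and 5.37%) and 13 and 7 with ACBI1 (12.4% and 7.88%). The counts depend on single libraries: for BRM014 the total of 43 was 62 without BRM014 replicate 2 (26 rose, 36 fell) and 26 without control replicate 1. For ACBI1 the total of 18 was 8 without control replicate 2, 10 without ACBI1 replicate 2 and 11 without ACBI1 replicate 1, and for BRDK98 the total of 23 was 14 without BRDK98 replicate 1. Granulocyte markers summed to 223 and 235 TPM with ACBI1 at 60 min against 355 and 369 TPM in controls, and their part in the result was not tested. The differences between compounds at 20 and 60 min were not tested.

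At 60 min Zfp263 had the largest change of any member with BRM014. Its level was 160.2 and 163 TPM in controls, 174 and 172 TPM with ACBI1, 124 and 123 TPM with BRDK98, and 15.5 and 15.1 TPM with BRM014. Against control the change was -3.32 ± 0.06 with BRM014 (adjusted p = 1.09e-12), -0.39 ± 0.06 with BRDK98 (adjusted p = 0.00063) and 0.10 ± 0.06 with ACBI1 (adjusted p = 0.24, 95% interval -0.04 to 0.23). The BRM014 libraries lay below the unstimulated controls (64.4 and 58.6 TPM), whereas at 20 min they were 50.5 and 49.7 TPM, against 56.7 and 52.9 TPM in the 20 min controls. Other members that the stimulus raised were lower with BRM014 too. Zfp131 was 19.4 and 22.9 against 39.2 and 39.7 TPM (-0.87 ± 0.10), and Zfp800 was 6.61 and 13.5 against 27.6 and 23.4 TPM (-1.33 ± 0.22). Neither overlapped its controls, and the BRM014 replicates of Zfp800 were unequal. Zfp281 was 11.4 and 11.6 TPM in controls, 2.57 and 4.39 TPM with BRM014 (-1.51 ± 0.14), 5.03 and 5.32 TPM with BRDK98 (-1.02 ± 0.14) and 17.3 and 17.1 TPM with ACBI1 (0.54 ± 0.14). Zfp281 thus fell with BRM014 and BRDK98 and rose with ACBI1, against the same 2 controls.

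Zfp703, raised by the stimulus, was higher still with BRM014, at 64.2 and 89.2 against 40.9 and 42.2 TPM (0.85 ± 0.15). Some members that fell at 60 min were higher with a compound. Zfp954 was 6.195 and 6.12 TPM at rest and 2.86 and 3.46 TPM in 60 min controls, 8.02 and 8.23 TPM with BRM014 (1.14 ± 0.10) and 14.1 and 13.5 TPM with BRDK98 (1.83 ± 0.10). Zfp574 was 4.10 and 4.62 TPM with BRM014 (1.25 ± 0.10) against 1.22 and 1.29 TPM in controls and 3.96 and 4.59 TPM at rest. In Zfp954 the BRM014 and BRDK98 libraries lay above the resting ones. Zfp217 was 2.43 and 4.04 TPM with BRM014 (-1.37 ± 0.13) and 15.1 and 15.8 TPM with BRDK98 (0.62 ± 0.13), against 9.89 and 9.53 TPM. With ACBI1, Zfp710 rose (35.1 and 34.1 against 19.3 and 17.9 TPM; 0.86 ± 0.09) and Zfp655 fell (9.67 and 10.6 against 18.4 and 21.5 TPM; -0.91 ± 0.13). The libraries with and without compound did not overlap in these genes.

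At 4 hr each compound raised more members than it lowered by the calls made here. In the authors' table this held for ACBI1 and BRM014 and not for BRDK98. All 3 comparisons use the same single control library, whose spread the fit takes from the other groups, so members that move the same way with all 3 compounds are not independent observations. With ACBI1, 32 rose and 7 fell, against 20% and 13.5% of all genes. With BRM014, 40 rose and 12 fell, against 26.3% and 16.4%, and with BRDK98, 29 rose and 5 fell, against 22% and 12.4% (34.5% in either direction). The share of members that rose was 26.4%, 33.1% and 24.0%, near the background in the last case. The authors' deposited table lists 26 members higher and 17 lower with ACBI1 (14.5% and 19.5% of all genes), 30 and 25 with BRM014 (17.6% and 23.4%), and 24 and 26 with BRDK98 (16.6% and 23.4%). On scaled TPM the members' medians were 0.18, 0.14 and 0.06. Without ACBI1 replicate 1, 19 rose and 5 fell with ACBI1. With BRDK98, 18 rose and 5 fell without replicate 1, and 17 rose and 5 fell without replicate 2. Of the members that rose at 4 hr, 21 of 32 with ACBI1, 27 of 40 with BRM014 and 20 of 29 with BRDK98 had fallen at 60 min of lipid A in experiment 4 (65.6%, 67.5% and 69%), while 59.5% of all tested members fell there. Marker sums also differed between these groups. The dendritic cell markers summed to 9.31 and 9.49 TPM with BRM014 and 2.16 TPM in the control. That sum was carried by Xcr1, which reached 9.18 TPM in experiment 1. Flt3, Itgae and Zbtb46 were at most 0.494 TPM there. The granulocyte markers summed to 41.2 and 31.9 TPM with BRM014, 4.44 and 4.88 TPM with BRDK98 and 17.9 TPM in the control. The part of these sums in the members' values was not tested.

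Zfp637 was called higher with each compound, against that 1 control library. It was 18.9 and 13.5 TPM at rest, 2.02 TPM in the 4 hr control, 7.53 and 6.98 TPM with ACBI1 (1.45 ± 0.24), 7.15 and 9.49 TPM with BRM014 (1.62 ± 0.24) and 9.23 and 8.22 TPM with BRDK98 (1.69 ± 0.24). All 6 compound libraries lay between the 4 hr control and the resting libraries. Zfp598, which encodes a ubiquitin ligase that senses collided ribosomes, was 4.82 TPM in the 4 hr control, 18.5 and 19.2 TPM with BRM014 (1.77 ± 0.16) and 17.0 and 14.6 TPM with BRDK98 (1.52 ± 0.16). Zfp809 was 2.36 TPM in the control, 9.62 and 7.92 TPM with BRM014 (1.53 ± 0.21), 7.64 and 8.74 TPM with BRDK98 (1.45 ± 0.21) and 3.74 and 4.56 TPM with ACBI1 (0.61 ± 0.21, not passing). Both genes were higher than the control in every library with BRM014 or BRDK98. Zfp821 was called lower with each compound, again against 1 library: it was 19.9 TPM in the control, 8.37 and 8.31 TPM with ACBI1 (-1.16 ± 0.13), 4.17 and 3.64 TPM with BRM014 (-2.09 ± 0.13) and 9.62 and 9.58 TPM with BRDK98 (-0.98 ± 0.13).

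Direct tests between compounds at 4 hr, 3 pairs in all, do not use the single control; p-values were adjusted over genes within each pair. BRDK98 against BRM014 gave 24 members higher and 31 lower, against 23.3% and 22.1% of all genes. BRDK98 against ACBI1 gave 16 higher and 17 lower, against 21.2% and 15.4%, and BRM014 against ACBI1 gave 13 higher and 9 lower, against 16% and 14.1%. The total of 33 between BRDK98 and ACBI1 (36.5% of all genes) was 16 without BRDK98 replicate 2, 19 without BRDK98 replicate 1 and 21 without either ACBI1 replicate. The total of 22 between BRM014 and ACBI1 (30.1% of all genes) was 14 without ACBI1 replicate 2 or BRM014 replicate 1. Zfp263 was 217 and 218 TPM with ACBI1, 124 and 123 TPM with BRM014 and 34.9 and 37.5 TPM with BRDK98. The difference was -0.81 ± 0.09 for BRM014 against ACBI1 (adjusted p = 6.51e-05), -2.56 ± 0.09 for BRDK98 against ACBI1 (adjusted p = 1.37e-08) and -1.74 ± 0.09 for BRDK98 against BRM014 (adjusted p = 1.59e-07). At 4 hr BRDK98 thus gave the lowest Zfp263, and at 60 min BRM014 did. Zfp777 was 5.96 and 7.26 TPM with ACBI1, 6.69 and 6.35 TPM with BRM014 and 27.2 and 25.8 TPM with BRDK98. It was higher with BRDK98 than with ACBI1 (1.86 ± 0.11) or BRM014 (1.87 ± 0.11), and between BRM014 and ACBI1 the difference was -0.01 ± 0.11, with a 95% interval of -0.26 to 0.24. Zfp217 was 13.7 and 13.5 TPM with ACBI1, 30.6 and 32.7 TPM with BRM014 and 10.1 and 11.1 TPM with BRDK98. The single 4 hr control held 11.8 TPM of Zfp217. BRM014 stood above ACBI1 in Zfp217 (1.16 ± 0.10) and BRDK98 below BRM014 (-1.49 ± 0.10).

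In Arid1a-/- cells the target was checked over all its exons. Arid1a was 7.17 and 13.2 TPM in knockout cells against 18.3 and 17.3 TPM in controls at 1 hr, and 25.4 and 26.1 against 35.2 and 41.9 TPM at 4 hr. The decrease was called at 1 hr (-0.80 ± 0.21) and not at 4 hr (-0.56 ± 0.21, adjusted p = 0.0838 on TPM), so the 4 hr libraries are named here by their label. Reads on all exons were counted, and the labels do not name the deleted exons. At 1 hr of LPS, 33 of 122 members were lower in knockout cells and 9 higher, against 16.8% and 18.8% of all genes. The authors' deposited table lists 20 lower and 3 higher at 1 hr (8.39% and 8.66% of all genes) and 14 lower and 4 higher at 4 hr (9.35% and 8.49%). Macrophage markers, whose sum is mostly Lyz2, summed to 14930 and 14970 TPM in knockout cells at 1 hr against 19240 and 19070 TPM in controls. Granulocyte markers summed to 36.6 and 30 against 21.6 and 22.0 TPM. The part of these sums in the result was not tested. The median member changed by -0.18 on TPM and -0.22 on scaled TPM, against 0.03 and -0.02 for all genes. Without control replicate 2, 15 were lower and 5 higher, and without control replicate 1, 20 were lower and 5 higher. Without knockout replicate 1, 22 were lower and 8 higher, and without knockout replicate 2, which had the higher Arid1a level, 42 were lower and 11 higher. Of 55 members with 5 or more fingers and neither KRAB nor SCAN, 20 were lower, and of 39 KRAB members, 7 were lower. Of the silencing list, 10 of 24 tested genes were higher and 3 lower, Trim28 among the higher (0.86 ± 0.09).

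Zfp263 was 98.3 and 94.4 TPM in controls at 1 hr and 35.4 and 36.2 TPM in knockout cells (-1.40 ± 0.08, adjusted p = 2.22e-06), where resting controls had 31.1 and 31.8 TPM. Zfp217 was 8.38 and 7.91 against 1.94 and 2.85 TPM (-1.44 ± 0.14), and Zfp281 was 11.9 and 11.4 against 4.43 and 6.86 TPM (-0.95 ± 0.16). Each was lower in both knockout libraries than in both controls. Zfp710 rose (23.0 and 28.0 against 13.1 and 13.0 TPM; 0.91 ± 0.13), as did Zfp367 (19.9 and 23.5 against 12.5 and 12.9 TPM; 0.72 ± 0.12). Of the 33 members lower with Arid1a loss at 1 hr, 9 also fell with BRM014 at 60 min in experiment 4, which shares no library (27.3%, and 56.2% of the 16 lowered by BRM014): Zfp131, Zfp217, Zfp263, Zfp275, Zfp281, Zfp384, Zfp513, Zfp516 and Zfp800. Of all 121 members tested there, 13.2% fell with BRM014. Another 6 of the 33 rose with BRM014 (18.2%, and 22.2% of the 27 raised by it). Of the 9 members higher with Arid1a loss, 3 rose and 2 fell with BRM014. Of the 33, 2 fell with ACBI1 (20% of its 10) and 2 with BRDK98 (50% of its 4).

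At 4 hr of LPS, 13 members were lower in the libraries labelled Arid1a-/- and 3 higher, against 10.8% and 14% of all genes. Without knockout replicate 1, 5 were lower and 2 higher, and without control replicate 2, 6 were lower and 2 higher. Zfp263 was 53.2 and 49.9 against 108 and 97.3 TPM (-0.98 ± 0.08, adjusted p = 2.93e-05). Zfp949 was 12.5 and 13.1 against 6.84 and 5.56 TPM (0.94 ± 0.13), and Zfp961 was 6.82 and 6.19 against 2.97 and 3.18 TPM (0.88 ± 0.12). Zfp949 stood above control at 4 hr, and at 1 hr it had stood below (1.72 and 1.43 against 3.38 and 3.77 TPM; -0.83 ± 0.13). The difference between the effects at 4 and 1 hr was called for 15 members, 9 with a higher effect at 4 hr, against 7.77% of all genes higher and 8.1% lower. For Zfp217 the effect at 4 hr was 0.13 ± 0.14 (8.51 and 9.63 against 8.66 and 7.75 TPM), which differed from that at 1 hr by 1.57 ± 0.20 (adjusted p = 0.000913). The total of 15 was 24 without the 1 hr knockout replicate 2 and 8 without the 4 hr knockout replicate 1 or the 1 hr control replicate 2. It was 9 without the 4 hr knockout replicate 2 or the 4 hr control replicate 2.

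**Figure D5:**
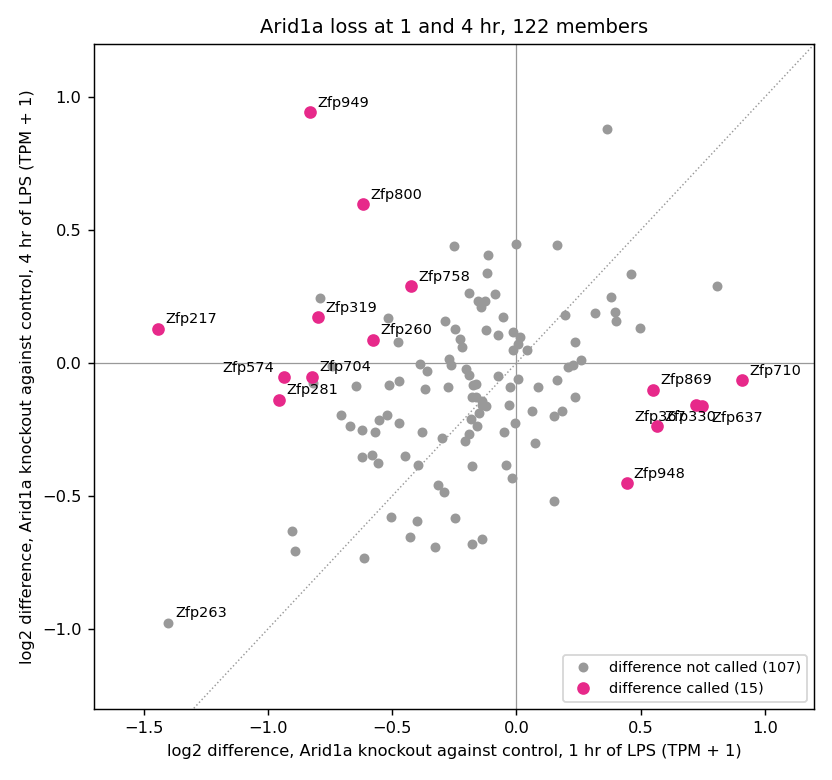
Log2 change of each member in Arid1a-/- against Arid1a f/f cells at 4 hr of LPS (vertical axis) against that at 1 hr (horizontal axis), on TPM; each point is 1 member. Zfp263 is low at both times (-1.40 and -0.98), while Zfp217, at -1.44 at 1 hr, is at 0.13 at 4 hr.

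In Pbrm1-/- cells the target was 4.54 and 5.03 TPM at 4 hr of lipid A against 15.6 and 14.7 TPM in Pbrm1 f/f controls. In limma Pbrm1 itself changed by -1.48 ± 0.17. This passed on TPM (adjusted p = 0.0265) but not on scaled TPM (adjusted p = 0.113), so it was not called. No member passed in limma, against 0% of all genes higher and 0.00905% lower. Since the call missed the target, the lack of member calls does not show that no member changed. Of 121 members 4 had an unadjusted p under 0.05, and voom called 0. Without control replicate 1 of 4 hr, 2 rose and 1 fell. Zfp263 was 148 and 134 TPM in knockout cells and 139 and 189 TPM in controls (-0.20 ± 0.18, 95% interval -0.60 to 0.20), and the groups overlapped. Zfp217 was 8.94 and 10.4 against 9.39 and 10.9 TPM (-0.06 ± 0.17, 95% interval -0.44 to 0.31).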

How the data were processed

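Messenger RNA was sequenced as 50 bp single-end reads from a stranded kit, per the labels' protocols. The authors used STAR 2.5.3a, HOMER and DESeq2 with GRCm38 (mm10), per the submitters' processing notes. The authors deposited TPM per gene in 4 tables, and counted exon reads on both strands, per the file headers. The authors also deposited log2 fold changes with p-values and adjusted p-values, of which counts are given for lipid A at 1 hr and 60 min, the compounds at 60 min and 4 hr, and Arid1a loss. Values for 45 libraries were used, and 1 further column repeated another in all genes and was left out.

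Genes with at least 1 TPM in 2 libraries were tested on log2(TPM + 1) with limma 3.58.1 (R 4.3.3, trend and robust), 1 fit per experiment over all its groups, without a replicate block, on TPM and on scaled TPM. A call needs an adjusted p under 0.05 (Benjamini-Hochberg) in both with 1 sign. Members tested numbered 121, 122, 121 and 121 in experiments 1 to 4, and all tested genes 11531, 11798, 11044 and 11549; Zfp979 was under the filter in experiments 1, 3 and 4. Reads were recovered from TPM and exon length with a factor fitted for each library. Among genes of low read count, where this was checked, 100% of values lay close to a whole number. An alternative was limma voom on these reads. The scripts were tested on simulated data.

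The members and lists were chosen with earlier results of these data known. Named members are the 5 highest at rest, those beside the threshold, the 4 called highest and 4 lowest in each comparison, and members of known role. Zfp513, Zfp516, Zfp638, Zfp653, Zfp979 and Zfp236 were named after their values were seen. Protein patterns come from GENCODE M21 coding sequences, and promoters from RefSeq.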

Additional observations from a re-analysis of the deposited data

Results flagged for a closer look

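The change with Arid1a loss differed between 4 hr and 1 hr of LPS, by the interaction term in limma, for 15 members. The share, 12.3% of 122, was below the 15.9% of all tested genes, and the count ran from 8 to 24 with 1 library left out. The effect at 4 hr minus that at 1 hr, on the log2(TPM + 1) scale, was 1.77 for Zfp949, 1.57 for Zfp217, 1.22 for Zfp800, 0.97 for Zfp319, 0.88 for Zfp574, 0.82 for Zfp281, 0.77 for Zfp704, 0.71 for Zfp758 and 0.67 for Zfp260. It was -0.97 for Zfp710, -0.91 for Zfp637, -0.90 for Zfp948, -0.88 for Zfp367, -0.81 for Zfp330 and -0.65 for Zfp869. The 1 hr knockout libraries differed in Arid1a level (7.17 and 13.2 TPM), and the part of that difference in these values was not tested.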

How the results depend on the processing

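Of 150 results for named members, 1618 values were recomputed under alternatives: 1521 kept their direction and side of the threshold, 97 kept the direction and lost the call, and 0 reversed. The counts of members called moved more. The totals here and with a library left out are given without the share of all genes called under the same setting. They show how the counts depend on the processing and are no result about the members. Called on TPM alone, the totals were 101 for lipid A at 4 hr in experiment 1, 104 in Pbrm1 f/f cells, 70 for LPS at 4 against 1 hr, 64 for ACBI1, 85 for BRM014 and 74 for BRDK98 at 4 hr, 36 for BRM014 and 53 for BRDK98 against ACBI1, and 34 for ACBI1 at 60 min. On scaled TPM alone they were 56 for BRDK98 at 4 hr, 71 for LPS at 4 against 1 hr and 1 for ACBI1 at 20 min. With no filter on low values, so that more genes were tested, they were 14, 31 and 17 for ACBI1, BRM014 and BRDK98 at 4 hr, 13 and 14 for BRM014 and BRDK98 against ACBI1, 18 and 7 for Arid1a loss at 1 and 4 hr, 5 for the difference between those, 28 for lipid A in Pbrm1 f/f cells, 0 for lipid A at 20 min, 0 for BRDK98 at 20 min, and 5, 22 and 12 for ACBI1, BRM014 and BRDK98 at 60 min. With voom on recovered reads they were 37 and 53 for BRM014 and BRDK98 against ACBI1, 74 for LPS at 4 against 1 hr, 5 for lipid A at 20 min, 1 for ACBI1 at 20 min and 28 for ACBI1 at 60 min. With a pseudocount of 0.1 they were 1 for lipid A and 2 for BRDK98 at 20 min. The cause was not tested.

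Leaving out 1 library at a time gave totals of 69 to 73 for lipid A at 1 hr, 69 to 76 at 60 min, 63 to 67 for 60 against 20 min, and 58 to 61 (experiment 1) and 40 to 63 (Pbrm1 f/f) at 4 hr, 0 to 10 for lipid A at 20 min, and 37 to 43 for LPS at 4 against 1 hr. At 4 hr they were 24 to 29 for ACBI1, 40 to 40 for BRM014, 22 to 23 for BRDK98, 14 to 19 and 16 to 21 for BRM014 and BRDK98 against ACBI1 and 37 to 45 for BRDK98 against BRM014. At 60 min they were 8 to 13, 26 to 62 and 14 to 18 for ACBI1, BRM014 and BRDK98, and at 20 min 0 to 0, 0 to 0 and 0 to 1. For Arid1a loss they were 20 to 53 at 1 hr, 7 to 13 at 4 hr and 8 to 24 for the difference, and for Pbrm1 loss 0 to 3. Where this leaves 1 library in a group, it is assumed to vary like the others; the single 4 hr control of experiment 1 was not left out.

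Replicate numbers did not pair the samples (correlations of deviations -0.09 to 0.21). A fit with the replicate block gave 79 members called at 1 hr and 78 at 60 min of lipid A, and moved no count by over 1.5 times. With 2 libraries a group the 95% interval for Pbrm1 loss had a median half-width of 0.42 (log2), so smaller differences were not detectable. That interval is not adjusted over genes, so larger differences could go uncalled too. Pbrm1 itself, at -1.48 ± 0.17, was not called.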
